A study of Danio rerio with 12 samples.

Results

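Chondrocytes, the cells of cartilage, were compared between the head and the trunk of zebrafish aged 15 days post fertilisation. ATAC-seq was used, in which a transposase cuts accessible DNA and leaves sequencing adapters at the cuts. The comparison used 6 of the 12 libraries of the series, chosen by sample title, 3 from head chondrocytes and 3 from trunk chondrocytes, each titled as a biological replicate. All groups came from wild-type fish carrying entpd5a:Gal4FF;UAS:GFP, a green reporter under entpd5a, a gene of bone-forming cells, and R2col2a1a:mCherry, a red reporter under a regulatory element of col2a1a, which encodes the main collagen of cartilage. Chondrocytes were sorted as red and not green, so the reporter enhancer and the gate define which cells were measured. The trunk cells are described as lying between the segments of the spine. The sources used here do not give the number of fish per library. The 6 other libraries, 3 of head and 3 of trunk osteoblasts (green and not red) of the same fish line and stage, served as a second cell type from the same body locations. Nothing in the labels says whether they came from other fish than the chondrocytes.

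In vertebrates, the cartilage of the face and jaw arises largely from neural crest cells of the head. The cartilage of the trunk arises largely from mesoderm. Both produce the same kind of matrix and share regulators such as Sox9, but they carry different positional programmes, with Hox transcription factors active along the trunk and silent in the most anterior crest. Regulatory DNA of a cell type is found in open chromatin, where such factors bind. Gene names were not assigned to coordinates, because an annotation of this genome build was not used here, and marker genes, Hox genes and promoters are therefore not described.

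Each library is a list of summits, each the base where a called peak is highest, with a score that is the authors' and ranks the summits within the list. The 3 head lists held 79517, 51158 and 46446 summits, and the 3 trunk lists 27334, 55274 and 8407. List length thus overlapped between the groups, but the trunk lists included the shortest. The main comparison kept the strongest 8407 summits of every library, and a repeat without trunk replicate 3, the shortest list, kept 27334. At 8407 summits the weakest kept score was 1.31 in trunk replicate 3, whose whole list was used, and between 15.8 and 172 in the 5 others. Neighbouring summits up to 250 bp apart were joined into regions. Trunk replicate 1 is described as having lost files and as represented from a later processing step. In a repeat of the window fits, replicate 1 of head and of trunk osteoblasts was also treated as having lost files.

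Marker genes could not be looked up, so the identity of the cells was not checked. What could be compared was the similarity of libraries sorted by the same or by the other gate. The measure was the Jaccard index, the regions shared by a pair of libraries divided by the regions held by either. Each of the 6 chondrocyte libraries shared more regions with every other chondrocyte library than with any osteoblast library. The narrowest margin was in head replicate 3, whose lowest index with a chondrocyte library was 0.502 and whose highest with an osteoblast library was 0.478.

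Regions that set head and trunk chondrocytes apart were far fewer than those that all 6 libraries held. Of 13960 regions with a summit in any of the 6 libraries, 4439 (31.8%) were held by all 6. A further 344 were held by all 3 head and no trunk library (head-only regions, 2.46%), and 270 by all 3 trunk and no head library (trunk-only regions, 1.93%). These shares are counts over regions and not a test: presence in 3 against 3 libraries cannot give an exact two-sided p below 0.1 for any single region. Separating regions, head-only and trunk-only together, accounted for 614 of the 1505 regions that exactly 3 of the 6 libraries held (40.8%).

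The strongest 1000 summits of a library almost all lay in regions that the longer kept lists of the other libraries also held. Separating regions ranked lower. Among the strongest 1000 summits of a head library, 99.1% ± 0.49 (SD, n = 3) of the regions were held by all 6 libraries and none was head-only. For trunk libraries the shares were 96.7% ± 2.6 held by all 6 and 0.2% ± 0.2 trunk-only. Separating regions were most frequent between ranks 5001 and 6000, at 7.47% ± 0.49 of the regions of a head library and 5.22% ± 0.71 of those of a trunk library. Median ranks of the head-only regions in the 3 head libraries were 5858, 5784 and 5737, and those of the trunk-only regions in the 3 trunk libraries were 5096, 5252 and 5276. Regions of all 6 libraries had median ranks between 2344 and 2489. These patterns depend on the cut. A strong summit separates only if its region lies past the cut in all 3 libraries of the other location. A summit near the cut needs only a small change of rank. With every list cut to 1000 summits, 435 of 1808 regions (24.1%) were held by all 6 libraries. Of the same regions, 28 (1.55%) were head-only and 17 (0.94%) trunk-only, so the strongest summits also differed between libraries and groups.

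**Figure D1:**
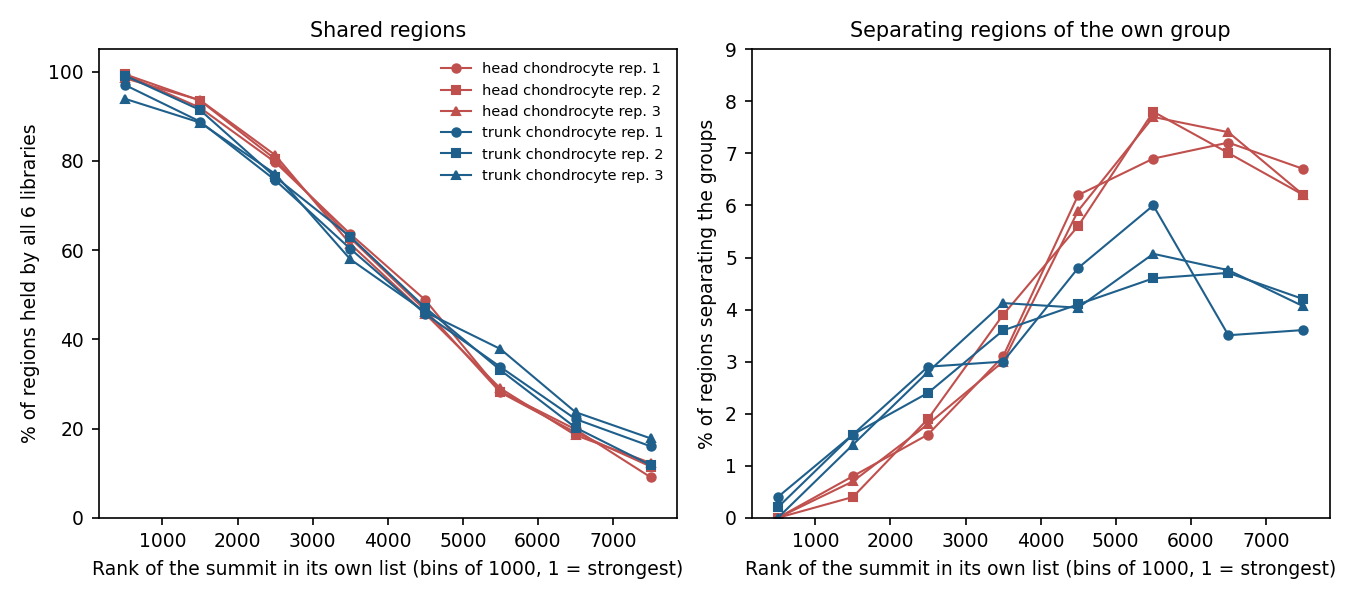
Share of the regions of each chondrocyte library that all 6 libraries held (left, percent) and that were separating in favour of the library's own group (right, percent), by the rank of the summit in its own list in bins of 1000. The lines are the 6 libraries, red for head and blue for trunk. Shared regions fell from 99.1% in the first bin to 11.0% in the last for head libraries, while separating regions were at or near 0 among the strongest 1000. Each bin was compared with the whole kept lists of the other libraries, so these trends depend on the cut.

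Most separating regions were not missing from the other location but ranked lower there. Of the 344 head-only regions, 307 (89.2%) had a summit in 2 of the 3 trunk libraries once those were taken at full length, and 3 had none in any. For these regions the full list of trunk replicate 1 held 307 and that of trunk replicate 2 held 341, at median ranks of 13190 and 11980. Trunk replicate 3 has no longer list and held 0 by construction. Of the 270 trunk-only regions, 226 (83.7%) had a summit in all 3 full head lists and 8 in none. The full lists of head replicates 1, 2 and 3 held 260, 252 and 230 of them. A higher rank in a sorted population can come from more cells with an open site or from more insertions per cell, which cannot be told apart in these data.

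The number of separating regions grew with list length, and their split by direction varied with the libraries and lengths compared. With the 6 libraries cut to 1000, 2000, 4000 and 6000 summits, 28, 52, 131 and 225 regions were head-only and 17, 40, 97 and 190 trunk-only. Without trunk replicate 3 and at 27334 summits, 1594 of 41072 regions (3.88%) were head-only and 1573 (3.83%) trunk-only, while 16466 (40.1%) were held by all 5 libraries. At that length the whole list of trunk replicate 1 was used. With lists at their full and unequal lengths, 3183 regions were head-only and 21 trunk-only. The head-only share of the separating regions was 56.0% at 8407 summits with 6 libraries, 42.0% at 8407 summits without trunk replicate 3 and 50.3% at 27334 summits without it. With 6 libraries head-only regions were the more numerous at each length given, whereas without trunk replicate 3 the direction varied with length. In the latter case a trunk-only region needed fewer libraries than a head-only region, so the directions were not counted alike. No excess of one direction held across all these settings.

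**Figure D2:**
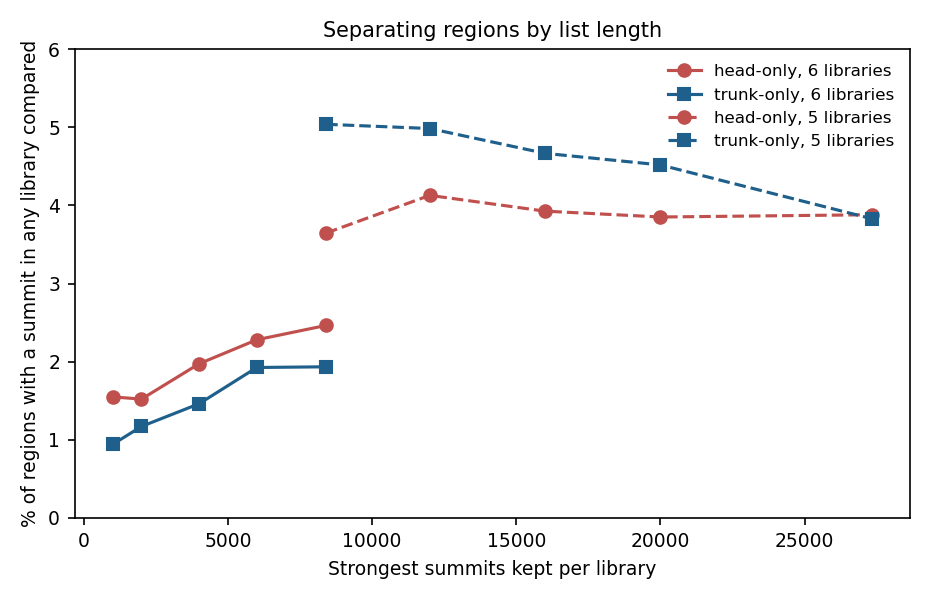
Head-only (red) and trunk-only (blue) regions as a percentage of all regions with a summit in any library compared, against the number of strongest summits kept per library. Solid lines use 6 libraries and dashed lines 5, without trunk replicate 3. With 6 libraries the head-only share rose from 1.55% to 2.46%, and with 5 the directions met at 3.88% and 3.83%.

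The regions that separate at the longer length are mostly different ones. The sets shared 6 head-only regions, 1.74% of the smaller set and 0.376% of the larger. They shared 31 trunk-only regions, 11.5% of the smaller set and 1.97% of the larger. A separating region of the smaller set is still held by its own location in the longer lists. By construction, none could therefore be head-only in one set and trunk-only in the other.

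Libraries of one location resembled each other more than libraries of different locations, on average, but trunk replicate 3 stood apart from all. At 8407 summits the mean Jaccard index was 0.716 within head, 0.585 within trunk and 0.578 between head and trunk, where single pairs ran from 0.492 to 0.687. The 3 head pairs, at 0.745, 0.709 and 0.693, lay above all 9 pairs of different location. The trunk pair of replicates 1 and 2 reached 0.699, while replicate 3 had 0.526 and 0.529 with them. That library held 1538 regions found in no other chondrocyte library, against 300 to 550 in the others, and lacked 815 regions that all 5 others held, against 74 to 222. Within groups the mean index was higher by 0.072 than between groups. An exact one-sided permutation test over the 10 splits of 6 libraries gave p = 0.1, the smallest it can give. Without trunk replicate 3, at 27334 summits, the excess was 0.093, again at an exact permutation p of 0.1. The head pairs, from 0.705 to 0.745, again lay above every pair of different location. The trunk pair of replicates 1 and 2, at 0.643, did not. Trunk replicate 2 had higher indices with head replicates 1 and 2, at 0.695 and 0.650.

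Regions chosen from 5 libraries were looked up in the library left out, which had no part in choosing them. In all 6 cases the left-out library held more of the regions of its own location. The 6 cases share most of their libraries and are not separate tests. By construction, at 8407 summits each head library held the same 344 head-only regions and each trunk library the same 270 trunk-only regions. Head replicate 1 held 65.9% of the 522 regions that the other 5 libraries gave as head-only and 28.9% of the 380 they gave as trunk-only. Head replicate 2 held 72.0% of 478 and 18.7% of 332, and head replicate 3 held 64.2% of 536 and 12.6% of 309. In all 3 head libraries the share of head-only regions was more than 2 times that of trunk-only regions.

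Trunk libraries showed the reverse order. Trunk replicate 1 held 28.2% of 479 head-only and 71.1% of 380 trunk-only regions. Trunk replicate 2 held 41.9% of 592 head-only and 60.5% of 446 trunk-only regions, and trunk replicate 3 held 24.1% of 453 and 43.1% of 626. The head-only minus the trunk-only share ran from 36.9 to 53.3 percentage points in the head libraries and was -42.9, -18.6 and -19.1 points in trunk replicates 1, 2 and 3, so that replicates 2 and 3 had the smallest gaps. The exact 95% binomial intervals of the paired shares did not overlap in any of the 6 libraries, and they cover counting error over regions only. Among the longer 5-library sets, trunk replicate 3 held 17 of 1594 head-only regions (1.07%, exact 95% interval 0.623% to 1.70%) and 113 of 1573 trunk-only regions (7.18%, 5.96% to 8.57%). At a fixed list length a left-out library can only raise these counts. The head-only count rose most without trunk replicate 2 (592), head replicate 3 (536) and head replicate 1 (522), and the trunk-only count without trunk replicate 3 (626) and trunk replicate 2 (446).

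**Figure D3:**
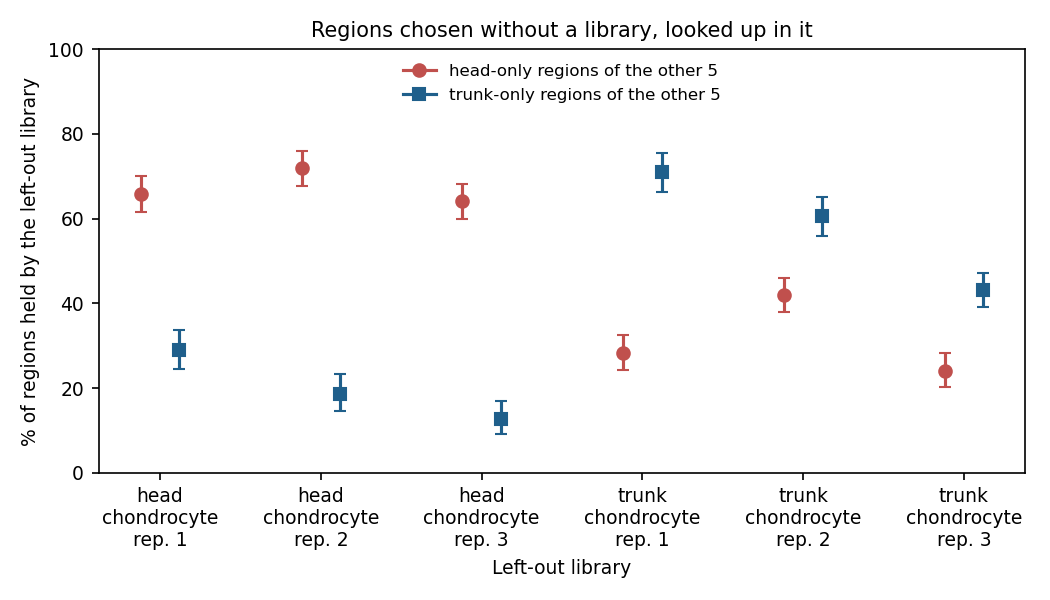
Percentage of the head-only (red circles) and trunk-only (blue squares) regions of 5 chondrocyte libraries that the left-out library held at 8407 summits, with exact 95% binomial intervals. The 3 head libraries held more of the head-only regions, from 64.2% to 72.0%, and the 3 trunk libraries more of the trunk-only regions, from 43.1% to 71.1%.

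Osteoblasts of the same body location, which were not used to choose the regions, carried part of the head and trunk difference of chondrocytes. At 8407 summits, head osteoblast replicates 1, 2 and 3 held 25.9%, 28.5% and 33.7% of the 344 head-only chondrocyte regions. They held 17.4%, 16.7% and 14.8% of the 270 trunk-only regions. All 3 head osteoblast libraries thus held the larger share of head-only regions.

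Trunk osteoblasts leaned the other way. Their replicates 1, 2 and 3 held 22.1%, 25% and 23.8% of the head-only and 31.9%, 31.1% and 34.1% of the trunk-only regions. The head-only minus the trunk-only share was 13.1 ± 5.3 percentage points in head osteoblasts and -8.7 ± 2.3 in trunk osteoblasts (SD, n = 3), a difference of 21.8 points. The values of the groups did not overlap, and the exact two-sided permutation p was 0.1, the smallest that 3 against 3 libraries allow. For the sets of 1594 and 1573 regions chosen without trunk chondrocyte replicate 3, with osteoblast lists of 20380 summits, the same difference was 22.1 points, again without overlap (exact permutation p = 0.1).

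**Figure D4:**
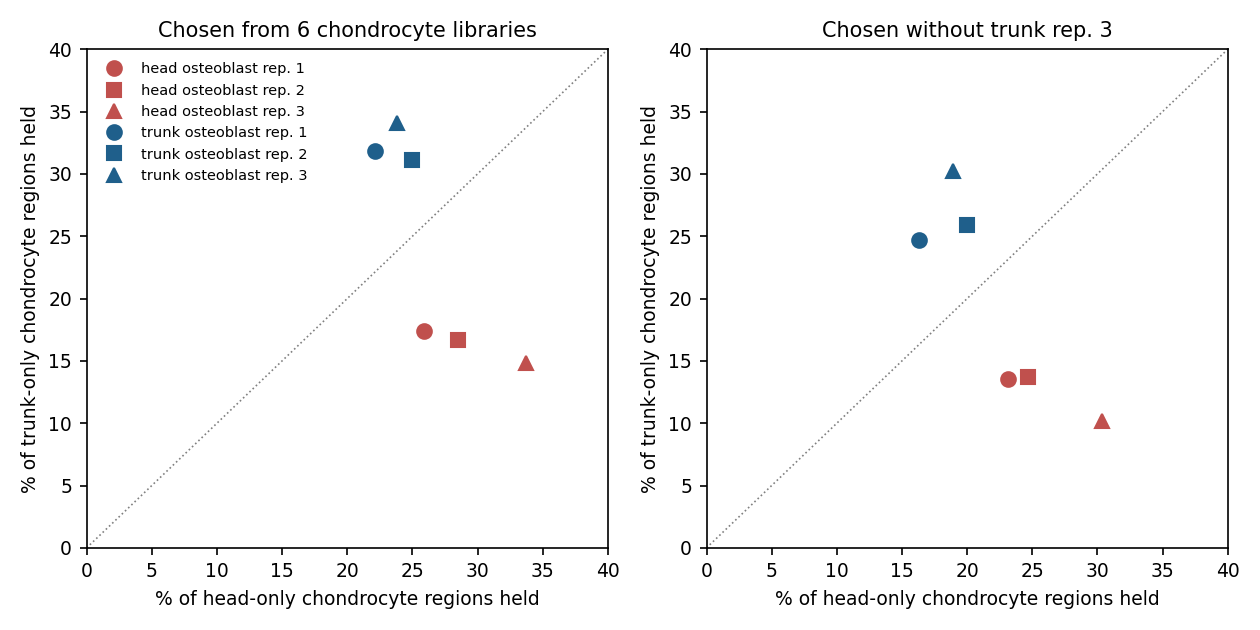
Percentage of the trunk-only chondrocyte regions (y axis) against that of the head-only chondrocyte regions (x axis) held by each osteoblast library, for regions chosen from 6 chondrocyte libraries (left) and without trunk chondrocyte replicate 3 (right). Red symbols are head and blue symbols trunk osteoblast libraries, and the dotted line marks equal shares. All head libraries lie below the line and all trunk libraries above it.

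The larger share of the separating chondrocyte regions were nevertheless outside the strongest 8407 summits of every osteoblast library. At that length, of the head-only regions, 192 (55.8%) had a summit in none of the 6 osteoblast libraries, as had 151 (55.9%) of the trunk-only regions and 763 (17.2%) of the regions of all 6 chondrocyte libraries. Over all 13960 regions the share was 39.4%. At full length, with 20380 to 78652 summits per list, the osteoblast lists of both locations held many of them. Single head libraries held from 64.5% to 95.9% of the head-only regions, and single trunk libraries from 46.5% to 83.7%. Of the trunk-only regions, single trunk libraries held from 59.6% to 90% and single head libraries from 46.3% to 83.7%. Full separation of the osteoblasts was rare. Of the 344 head-only regions, 10 (2.91%) were held by all head and no trunk osteoblast libraries, against 0.759% of all regions, and 7 (2.03%) were held by all trunk and no head osteoblast libraries. Of the 270 trunk-only regions, 21 (7.78%) were held by all trunk and no head osteoblast libraries, against 1.58% of all regions, and 0 by all head and no trunk libraries.

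Regions were named if they separated the groups at both list lengths, lay on a chromosome and lay over 1000 bp from any summit of the other group at the longer length. This left 5 head-only regions, all given here, and 26 trunk-only regions, of which the 12 with the lowest mean rank were taken. The set was chosen by these ranks, which are given as a description. Coordinates count from 1 in GRCz11 and span the first to the last summit of a region over all libraries.

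Among the head-only regions the strongest was on chromosome 5, 63871310 to 63871410, with ranks of 5154, 3378 and 4380 in head replicates 1 to 3. It was absent from the lists of trunk replicates 1 and 3 and stood at rank 31318 in trunk replicate 2. The next, on chromosome 24, 2050648 to 2050732, had ranks of 4569, 5711 and 5382 in the head libraries and 47068 in trunk replicate 2. In both, the head libraries lay close together and the trunk summit, where there was one, was far down its list.

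In the 3 remaining head-only regions no trunk chondrocyte list held a summit, even at full length. The region on chromosome 20, 10111152 to 10111195, had ranks of 6341, 7642 and 5704 in head chondrocytes and still higher places in head osteoblasts, at 3039, 2537 and 2808. Its only trunk summit was at rank 22878 in trunk osteoblast replicate 3. Head libraries of both cell types thus ranked it within their strongest 8407 summits. On chromosome 22, 38841163 to 38841264, ranks were 7984, 4151 and 7970 in head chondrocytes, with summits in all 3 head osteoblast lists and in 2 of 3 trunk osteoblast lists. On chromosome 4, 25488907 to 25488965, ranks were 6402, 8026 and 6365, and no list of the other 3 groups held a summit. That region lies beyond 25000000, taken here as the start of the long arm of chromosome 4, which a repeat of the counts left out.

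The named trunk-only regions reached higher places. They were the 12 of lowest mean rank among 26, whereas all 5 head-only regions that met the rule were named. The strongest, on chromosome 7, 73904069 to 73904198, stood at ranks 750, 987 and 2297 in trunk replicates 1 to 3 and at 50604 and 43008 in head replicates 1 and 2, with no summit in head replicate 3. On chromosome 6, 11007071 to 11007194, trunk ranks were 2254, 2110 and 2904 and head ranks 39565, 32820 and 35743. All 6 osteoblast lists held a summit there, between ranks 4263 and 18209. Both regions thus ranked within the strongest 8407 summits of every trunk chondrocyte library and no higher than rank 32820 in the head chondrocyte lists that held them.

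A pair of trunk-only regions started 27190 bp apart on chromosome 23. At 36052770 to 36052858 the ranks were 1177, 1997 and 6092 in trunk chondrocytes, and no head chondrocyte list held a summit. Trunk osteoblasts held it too, at 2019, 1522 and 1887, and head osteoblasts had it once, at rank 70330. At 36025580 to 36025770 trunk chondrocyte ranks were 3417, 2564 and 3940, with summits at 29833 and 32789 in head replicates 1 and 2. Trunk osteoblasts had that region once, at rank 42557, so of the pair one was shared by both trunk cell types and the other was nearly absent from osteoblasts.

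The other 8 named trunk-only regions lay on chromosomes 13, 5, 2, 23, 14, 12, 6 and 8. Their ranks in trunk chondrocytes ran from 1800 to 6593. Of the 12 named trunk-only regions, 1 had no summit in any full head chondrocyte list. Full trunk osteoblast lists held 12 of the 12 at least once, and full head osteoblast lists held 8. All 3 trunk osteoblast lists held 5 and all 3 head osteoblast lists 2 of them. Of the 5 named head-only regions, all 3 head osteoblast lists held 4 and all 3 trunk osteoblast lists held 0. The full osteoblast lists differ in length, with 28911, 78652 and 60979 summits in head replicates 1 to 3. Those of trunk replicates 1 to 3 had 20380, 24798 and 64219. A longer list can hold more regions, so these counts over few regions are a description only.

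**Figure D5:**
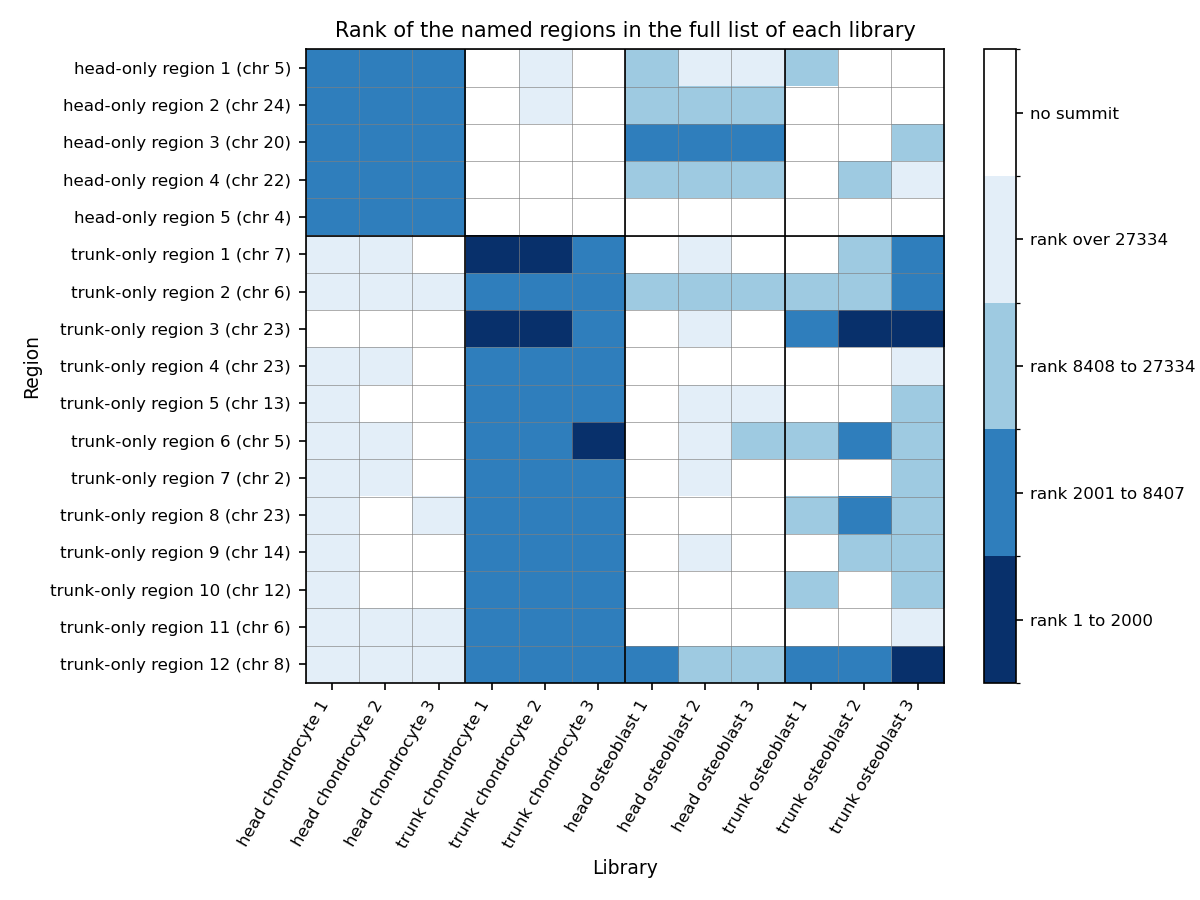
Rank of the 5 head-only and 12 trunk-only named regions in the full list of each of the 12 libraries, in classes from rank 1 to 2000 (darkest) to no summit (white). Rows are regions with their chromosome, and columns are libraries by group. The head-only regions fall in the 2 darkest classes in head chondrocytes, and the trunk-only regions in trunk chondrocytes, as the rule required. The osteoblast columns were not used by the rule.

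Outside that rule, and chosen after their values were seen, the strongest separating regions of the 6-library sets also had lower-ranked summits in some full lists of the other location. On chromosome 12, 44674342 to 44674570, ranks were 1834, 1962 and 1696 in head replicates and 14471 and 14820 in trunk replicates 1 and 2. Trunk replicate 3, the shortest list, had no summit there. On chromosome 23, 1918769 to 1918874, ranks were 1065, 557 and 1895 in trunk replicates. They were 34253 and 24477 in head replicates 1 and 2, far down those lists, and head replicate 3 had no summit.

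Separating regions were spread over the genome. Every one of the 25 chromosomes held both kinds at 8407 summits, from 7 to 21 head-only and from 5 to 19 trunk-only regions. The number of open regions per chromosome did not pass the test for any chromosome. limma called 0 of 25 chromosomes (0%) at an adjusted p below 0.05, with 1 at an unadjusted p below 0.05 and log2 differences, head minus trunk, from -0.05 to 0.09. That one was chromosome 11, with 306 to 310 regions per library in head and 272 to 299 in trunk chondrocytes, which is 0.09 ± 0.04 (SE) on the log2 scale (limma adjusted p = 0.43).

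At 8407 summits few separating regions lay near another of their kind. Another head-only region within 10 kb was found for 4 of the 344 head-only regions (1.16%), and a head-only region lay as near to 1.16% of all regions. The shares for trunk-only regions were 2.22% (6 of 270) and 1.13%. Among 100 kb windows, 319 held a head-only and 254 a trunk-only region. Of these, 8 held both (2.51% of the former and 3.15% of the latter). The overlap to be had from random placement was not computed, so the 8 windows do not show that the kinds lay apart.

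Counts of open regions per 100 kb window gave no call that was independent of how the spread was estimated. In limma on all 12 libraries, 21 of 3503 windows were called higher in head (0.599%) and 26 higher in trunk (0.742%). Of these 47, 18 had the same count in every replicate of each group, as had 487 of the 3503 windows, and 43 differed by no more than 2 regions between group means. The 5 windows with the smallest p in each direction all held 2 regions in every library of one group and 1 in every library of the other. With the variance of each window held at or above the trend over all windows, a setting added after the data were seen, limma's model called 0 windows (0%), with 272 at an unadjusted p below 0.05 and a smallest adjusted p of 0.061. In 110 windows (3.14%) every head library lay above every trunk library, and in 111 (3.17%) the reverse held.

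Some windows held several separating regions. The window on chromosome 6 from 7000001 to 7100000 held 6, 5 and 6 regions in trunk replicates 1 to 3 and 0, 0 and 1 in head replicates 1 to 3. In osteoblasts it held 2 regions in trunk replicate 2 and 0 in the 5 other libraries. The groups did not overlap and the log2 difference was -3.09 ± 0.65 (SE), but the window did not pass the test (limma adjusted p = 0.079, and 0.304 with the variance held at the trend). The limma adjusted p was 0.00836 without trunk osteoblast replicate 2 and 0.038 without head chondrocyte replicate 3. A repeat left out trunk chondrocyte replicate 3 and cut the lists to 20380 summits, the length of the shortest other list. In these longer lists the difference was -0.42 (limma adjusted p = 0.76). On chromosome 24 from 38700001 to 38800000, the only window with 3 head-only regions, head replicates held 4, 6 and 5 regions and trunk replicates 3, 2 and 1 (log2 difference 1.21 ± 0.60, limma adjusted p = 0.49). It was 0.09 at the longer lists without trunk replicate 3. On chromosome 1 from 24000001 to 24100000 every head library held 2 regions and every trunk library 0. The window's log2 difference was 2.32 ± 0.17 (SE, limma adjusted p = 0.000105) and its adjusted p was 0.061 with the variance held at the trend. At the longer lists without trunk replicate 3 the difference was 0.89 (limma adjusted p = 0.072). All 6 osteoblast libraries held 1 or 2 regions there. The windows on chromosome 4 from 18900001 and chromosome 17 from 24000001 held 2 trunk-only regions each. They differed by -0.57 and -1.22 (limma adjusted p = 0.499 and 0.00746). That on chromosome 1 from 28000001, with 2 head-only regions, differed by 1.22 (limma adjusted p = 0.000558). With the variance held at the trend the limma adjusted p values were 0.769, 0.328 and 0.304. At the longer lists without trunk replicate 3 the differences were -0.41, 0.15 and 0.

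Lists of 27334 summits held windows with more such regions. Without trunk replicate 3 and at 27334 summits, 35 of the 1273 windows with a trunk-only region held at least 3 of them. Of the 1390 windows with a head-only region, 14 held 3, the most for that direction. Both kinds lay in 227 windows. A trunk-only region needed fewer libraries here, so the directions were not counted alike. On chromosome 3, the window from 23600001 to 23700000 contained 5 trunk-only regions, with 10 and 9 regions in trunk replicates 1 and 2 and 2, 1 and 2 in head replicates. With all lists at 8407 summits the window held 3, 2 and 2 regions in trunk and 1 in each head replicate.

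The window on chromosome 23 from 36000001 to 36100000, which holds the pair named above, likewise had 5 trunk-only regions. Trunk replicates 1 and 2 held 10 and 7 regions in it and head replicates 3, 1 and 3. With all lists at 8407 summits every trunk replicate held 3 and every head replicate 1. On chromosome 17 from 14500001 to 14600000 trunk replicates 1 and 2 held 9 regions each and head replicates 3, 4 and 3, but at 8407 summits trunk replicates held 3, 3 and 2 and each head replicate 3. The window on chromosome 4 from 20700001 to 20800000 also had 5 trunk-only regions. There trunk replicates 1 and 2 held 8 and 9 regions and head replicates 5, 7 and 6. At 8407 summits trunk replicates held 3, 2 and 0 and head replicates 1, 0 and 0. Trunk and head were thus apart at both lengths in the windows on chromosomes 3 and 23. In that on chromosome 17 they were apart at the longer length alone. In that on chromosome 4 trunk replicates 1 and 2 lay above every head replicate at both lengths. Trunk replicate 3, which the longer length leaves out, held 0 regions there at 8407 summits. A head-rich counterpart was the window on chromosome 2 from 15500001 to 15600000, with 5 regions in each head library, 3 and 2 in trunk replicates 1 and 2, and 3 head-only regions, but at 8407 summits it held 1 region in head replicate 3 and 0 in the 5 other libraries. No test was made on these windows, which were picked by their separating regions.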

How the data were processed

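The sample titles gave the groups and replicate numbers. The tools named for danRer11, per the submitters' processing notes, are MACS2 together with Bowtie2, fastp, deepTools, bedtools and SAMtools, without versions or settings. The authors' deposited score of each summit is on a −log10 scale of either p-value or q-value, and the sources used here do not say which. Peaks were called per library. The score grows with depth, so it was used only to rank summits within a list. Read counts were not used here, so depth is unknown beyond list length. Per the labels' protocols, the amount of transposase and the reaction time were adjusted to the cell number of each sample, and how far this moved with the groups was not tested. The peak names of 7 lists, 1 of them from a chondrocyte library (trunk replicate 3), bear a replicate number that differs from the title, which was followed.

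Positions were read as 1-based. Summits of all 12 full lists within 250 bp were chained into 133213 regions, so that a region keeps its identity at every list length. A region was held by a library if one of its kept summits lay in it. Absence means that no summit was called among those kept. Regions were counted per 100 kb window and per chromosome by their middle, at 8407 summits in all 12 libraries, and log2(regions + 0.5) was fitted with limma (version 3.58.1, R 4.3.3; for windows with trend and robust options) with 4 group means, 8 residual degrees of freedom and Benjamini-Hochberg adjustment. Windows with a mean below 1 region per library were left out. The log2 scale understates changes of windows with few regions. Single values over libraries were tested by exact permutation. Procedures were tested on simulated data.

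Planned tests of genes, promoters, base composition and motifs were not run, since no annotation or sequence of this build was used here. The comparison, its lists and its tests were chosen with earlier results of these data known. Named regions were, per direction, the 12 of lowest mean rank, or fewer, on chromosomes 1 to 25 that separated the groups at both list lengths with no other-group summit within 1000 bp at the longer one. Named windows were the 5 of smallest p per direction, described together, and those with the most separating regions, first in genome order where tied.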

Additional observations from a re-analysis of the deposited data

How the results depend on the processing

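Counts of separating regions followed list length and the number of libraries. Head-only, trunk-only and shared regions numbered 1594, 1573 and 16466 without the shortest list at the length of the next, 3183, 21 and 7282 with full lists, and 131, 97 and 2107 at 4000 summits. At 12000, 16000 and 20000 summits without the shortest list, lengths added after the data were seen, head-only regions numbered 724, 919 and 1131, trunk-only regions 874, 1092 and 1327, and shared regions 7542, 10102 and 12476. Requiring 2 of 3 libraries gave 848 head-only and 912 trunk-only regions. Leaving out single libraries gave 453 to 592 head-only, 309 to 626 trunk-only and 4513 to 5254 shared regions. Other chaining distances, chaining of kept summits alone, the neighbour rule and leaving out the long arm of chromosome 4 kept all 3 counts within 1.5 times.

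The excess similarity within groups and the osteoblast difference kept their direction in every setting run. The first ranged from 0.047 with full lists, where the exact one-sided permutation p was 0.2, to 0.093. The second ranged from 8.1 to 24.7 points, lowest for regions chosen at 27334 summits and looked up at 8407, and from 17.4 to 24.1 when single libraries were left out.

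Window calls higher in head and in trunk numbered 44 and 46 with 6 libraries alone, and 0 and 0 with full lists and a length covariate. They numbered 74 and 66 without trunk chondrocyte replicate 3 at longer lists of 20380 summits. Without a filter they were 86 and 87, and at a mean of at least 2 regions 2 and 3. With the variance floor they were 0 and 0. Leaving out single libraries gave 22 to 52 and 26 to 49, or 22 to 74 and 26 to 66 with the longer lists counted in. With the replicate block they were 24 and 26. A term for file loss, set for replicate 1 of every group but head chondrocytes, gave 23 and 29. Same-numbered head and trunk libraries had correlations of deviations of 0.041, 0.013 and 0.215, and head replicate 1 correlated best with trunk replicate 2 (0.226), so the numbers were not taken to pair samples. No chromosome was called with the block (0 higher in head, 0 in trunk) or without any single library (0).

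Some named windows turned direction. In the longer lists of 20380 summits without trunk chondrocyte replicate 3, the log2 difference was -0.24 for chromosome 6 from 9500001 and 0.06 for chromosome 16 from 33900001. It was 0.37 for chromosome 9 from 50100001 and 0.15 for chromosome 17 from 24000001. With full lists it was -0.15 for chromosome 16 from 1300001 and 0.06 for chromosome 9 from 50100001. Of the 3 windows described by their counts, that on chromosome 6 from 7000001 moved from -3.09 to -0.42 at the longer lists and -0.55 with full lists, and passed with a pseudocount of 1 (-2.40, limma adjusted p = 0.040). The window on chromosome 24 from 38700001 moved from 1.21 to 0.09 and 0.08, and that on chromosome 1 from 24000001 from 2.32 to 0.89 and 0.63, neither past the threshold. The cause was not tested.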

Other observations

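Within regions held by all 6 libraries, the summits of head and trunk chondrocytes lay at nearly the same base. Over 4356 such regions with 1 kept summit per library, the median distance between the summits of a pair of libraries was 6 to 24 bp within a location and 5 to 22 bp between locations. The closest pair of all was head replicate 1 with trunk replicate 2, which are also the pair of the longest head and trunk lists. Every distance of 20 bp or more involved trunk replicate 3.

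With equal lists of 8407 summits, head chondrocyte libraries were about as close to head as to trunk osteoblasts over all regions, and 1 of 3 was closer to head. Mean Jaccard indices were 0.413 with head and 0.418 with trunk osteoblasts for head replicate 1, 0.409 and 0.413 for replicate 2, and 0.462 and 0.453 for replicate 3. Trunk chondrocyte libraries had the higher mean with trunk osteoblasts in all 3 cases, at 0.415 against 0.383, 0.424 against 0.398 and 0.389 against 0.365. The lean towards the own location among separating regions was thus visible over all regions in trunk chondrocytes and not in every head library. This difference was not tested.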
